A study of Mus musculus with 4 samples.

Results

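The insulin-like growth factor (IGF) family was followed here through 9 genes. They are the ligands Igf1 and Igf2, the receptor Igf1r and the binding proteins Igfbp2, Igfbp3, Igfbp4, Igfbp5, Igfbp6 and Igfbp7. The members were taken by symbol, each of the 9 matched exactly 1 of the 31053 genes listed for each library, and all 9 had at least 1 unique molecular identifier (UMI, the tag that marks 1 captured transcript molecule). Of all genes, 22489 had a UMI in the barcodes kept.

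The libraries came from bone of wild-type mice, 2 control mice (Ctrl) and 2 mice under hindlimb unloading (HLU), in which the tail was suspended for 28 days so that the hind limbs bore no weight. The marrow of tibiae and femurs was flushed out, what remained was dissociated enzymatically, and each group gave 2 droplet libraries made with a 3′ kit. The age of the mice is not stated here, since the methods and the series description give it differently. Barcodes with 1000 to 40000 UMIs and at most 10% mitochondrial UMIs were kept. They numbered 7340 and 7635 for Ctrl and 7757 and 9485 for HLU, and their median depth per library ran from 3799 to 6294 UMIs.

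IGF1 and IGF2 are secreted peptides that act through the receptor tyrosine kinase IGF1R, and in the growing skeleton they drive the proliferation and enlargement of chondrocytes and the work of osteoblasts. In the extracellular fluid most of the ligand is held by binding proteins, which prolong its life and set how much reaches the receptor, and proteases such as PAPP-A release it again by cutting them. Bone stores IGF in its matrix, partly through IGFBP5, and growth hormone induces Igf1 in liver and skeletal cells.

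In the text, 4 values in a row are those of the first and second Ctrl library and then of the first and second HLU library. Where groups are said to overlap or not, or to lie above or below, this only describes the values. The share of all genes that separate in this way was not counted, and with 2 libraries in each group separation alone is weak evidence. Levels are in CPM (counts-per-million, the UMIs of a gene scaled to the UMIs of the cells summed). They are not corrected for transcript length, so they were compared between cells and libraries but not between genes.

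The starts of 4 members are shown because the results turn on them: the receptor Igf1r, Igfbp4, which the neutrophil lineage also carried, and Igfbp5 and Igfbp7, for which the test between osteochondral and blood cells gave a call. Each line is the 60 bases before a RefSeq start on GRCm38.p6, 5′ to 3′ on the gene's own strand, and both strands were searched for a TATA box and a GC box, whose letters are in capitals and are spelled out after the sequences.
Igf1r: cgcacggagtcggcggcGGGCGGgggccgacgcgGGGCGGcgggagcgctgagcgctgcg
Igfbp4: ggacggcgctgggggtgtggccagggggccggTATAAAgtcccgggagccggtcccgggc
Igfbp5: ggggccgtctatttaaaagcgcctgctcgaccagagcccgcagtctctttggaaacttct
Igfbp7: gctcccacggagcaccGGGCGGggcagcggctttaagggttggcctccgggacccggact

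The windows lie at chr7:67952197-67952256 on the plus strand for Igf1r, chr11:99041184-99041243 on the plus strand for Igfbp4, chr1:72874866-72874925 on the minus strand for Igfbp5 and chr5:77408046-77408105 on the minus strand for Igfbp7. The TATA box was taken as TATAAA and the GC box as GGGCGG. The Igf1r window held 2 GC boxes, at −43 and −26 from the start, the Igfbp7 window 1 at −44, and the Igfbp4 window 1 TATA box at −28. The Igfbp5 window held neither run of letters, which says nothing about the factors that bind there. Of 32851 promoters of the same length, 3.92% held TATAAA and 18.6% held GGGCGG, against 1 and 4 of the 13 RefSeq starts of the members. No 2 matches in these 4 windows shared a base.

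In mm10, Igfbp2 (chr1:72824503-72852474, plus strand) and Igfbp5 (chr1:72857932-72874884, minus strand) are neighbours that face each other. Igf1r lies at chr7:67952827-68233668 on the plus strand and Igf2 at chr7:142650766-142666816 on the minus strand. Igf1 lies at chr10:87858265-87937042 on the plus strand, Igfbp4 at chr11:99041244-99054392 on the plus strand, Igfbp3 at chr11:7206086-7213923 on the minus strand, Igfbp6 at chr15:102144362-102149511 on the plus strand and Igfbp7 at chr5:77349240-77408041 on the minus strand. All 9 are annotated as protein coding.

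The libraries did not hold the same cells. Clusters with chondrocyte, mesenchymal stromal or connective tissue markers, together called osteochondral cells, held 3617 and 2395 cells for Ctrl but 94 and 181 for HLU. Of these cells, 52, 80, 22 and 53 fell in sub-cluster 11 of the second clustering described further on. It had many blood markers raised and no osteochondral marker, and without it the class held 3565, 2315, 72 and 128 cells. No cluster was named for osteoblasts. A chondrocyte cluster led by Col9a1 and Matn3 (288, 357, 16 and 27 cells) also passed the marker rule for osteoblasts, but its chondrocyte markers scored higher. HLU replicate 1 had 0 connective tissue cells because 20 cells of it in a connective tissue cluster had 0 of the markers raised and were left unnamed. Its barcodes were shallow, with a median of 3799 UMIs. The HLU libraries differed more from each other than the Ctrl libraries did (chi-squared per degree of freedom of gene totals 549 and 102). No library duplicated another, and pairs of libraries shared 13 to 21 barcode sequences among those kept. The clusters were made without the 9 members and the other IGF pathway genes, so their levels did not shape the cell types.

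Counted over all barcodes, the family made up 1645, 1559, 237 and 153 CPM. Its makeup also differed. Igfbp7, a matrix-associated protein that binds IGF weakly, gave 53.0% and 51.4% of the family's UMIs in Ctrl but 8.92% and 5.65% in HLU. Igf1r gave 7.30% and 8.58% in Ctrl and 59.6% and 44.4% in HLU. These are shares of counts within a library, so a member's share also moves with the other members.

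The ligands were sparse. Igf1 had 6.29, 5.33, 1.28 and 0.902 CPM, so the groups did not overlap. Igf2, the fetal growth factor that is largely silenced after birth in mice, had 23, 26, 2 and 0 UMIs in all. Its summed Ctrl level was 28.3 times that of HLU, with a 95% interval from counting error alone of 7.43 to 240.

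Igf1r had 120, 134, 141 and 67.9 CPM over all barcodes. The HLU values lay on both sides of the Ctrl values.

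Among the binding proteins, Igfbp5, which binds both IGF and bone matrix, had 215, 238, 42.3 and 25.5 CPM. Igfbp6, which prefers IGF2, had 380, 322, 2.999 and 8.52 CPM, and Igfbp7 had 872, 801, 21.2 and 8.64 CPM. For these 3 genes both HLU libraries lay far below both Ctrl libraries. Igfbp2 had 9.35, 2.74, 0.0441 and 0.228 CPM and also did not overlap. Igfbp4, which mainly restrains IGF until PAPP-A cuts it, had 37.9, 54.9, 24.96 and 39.2 CPM, and Igfbp3, the main carrier of IGF in serum, had 3.61, 0.7998, 3.04 and 1.96 CPM. In both of these the groups overlapped.

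**Figure D1:**
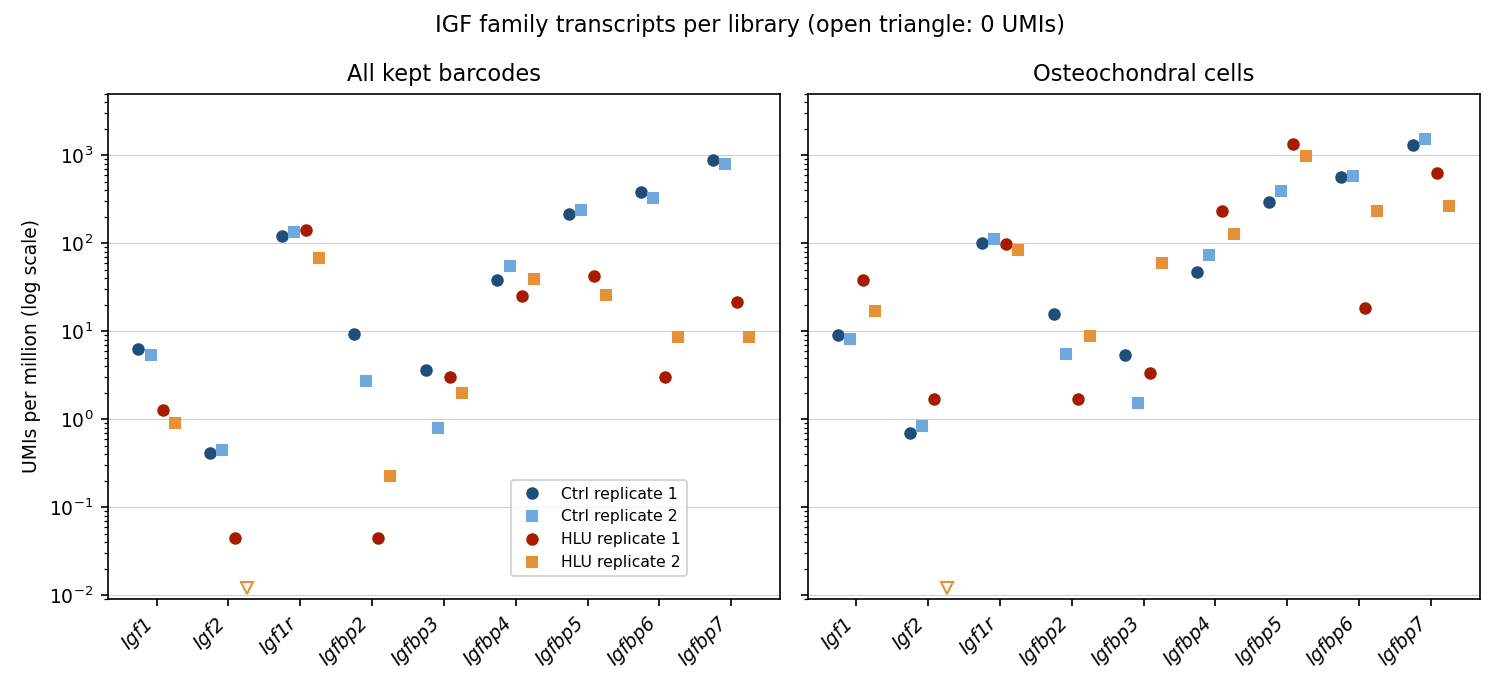
CPM (log axis) of the 9 members in each of the 4 libraries, over all kept barcodes (left) and over osteochondral cells (right), with an open triangle for 0 UMIs. Over all barcodes both HLU libraries lie below both Ctrl libraries for Igf1, Igf2, Igfbp2, Igfbp5, Igfbp6 and Igfbp7, whereas in osteochondral cells Igf1, Igfbp4 and Igfbp5 lie higher in both HLU libraries and Igfbp6 and Igfbp7 lower.

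In the comparison of HLU with Ctrl over all barcodes (edgeR quasi-likelihood test on UMI sums, 2 libraries against 2, Benjamini-Hochberg over 15385 genes), 6 of the 9 members were lower in HLU at an adjusted p under 0.05, and 17.1% of all genes tested were. Igfbp6 fell by 5.82 on the log2 scale (SE 0.679, adjusted p = 0.00626) and Igfbp7 by 5.77 (SE 0.535, adjusted p = 0.0040). The log2 differences of the other 4 were −5.22 for Igfbp2 (adjusted p = 0.0220), −4.48 for Igf2 (0.0375), −2.68 for Igfbp5 (0.00698) and −2.35 for Igf1 (0.0119). For Igf1r, Igfbp3 and Igfbp4 the differences were −0.23, 0.24 and −0.44, with adjusted p of 0.691, 0.840 and 0.434. Of 20 skeletal transcripts such as Col2a1 and Dcn, 17 were lower in the same test, with a median log2 difference of −5.50. These sums cannot tell fewer cells of a type from less RNA per cell. Igf1 and Igf2 no longer passed when either Ctrl library was left out, nor did Igfbp2 without Ctrl replicate 1. Far fewer genes of any kind were called lower in these 2 fits, each of which held 1 Ctrl library.

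The other genes of the pathway moved mostly downwards where they passed, as did most genes called, of which 2636 of 3568 were lower. Of 47 listed genes 44 were tested, and 1 was higher and 13 lower in HLU, with a median log2 difference of −0.10. Over all genes tested the median was 0.04, and 6.06% were higher and 17.1% lower. The 1 higher was Pik3cd, the catalytic subunit of phosphoinositide 3-kinase that leukocytes use, with 12.3, 21.0, 60.7 and 49.9 CPM (log2 difference 1.80, adjusted p = 0.0220). Both HLU libraries lay above both Ctrl libraries.

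The largest fall was that of H19, an imprinted noncoding RNA beside Igf2, with 109, 190, 0 and 0 UMIs, at least 115-fold lower in HLU when 3 UMIs over the group are taken as the floor. Htra1, a secreted protease that cuts binding proteins and matrix, had 447, 312, 5.73 and 8.66 CPM (log2 difference −5.63, adjusted p = 0.00341). Htra1 was counted with the other receptors and binding proteins. Of the 4 genes listed as further proteases of binding proteins and their inhibitors, 3 were lower. They were Pappa (−2.59, adjusted p = 0.00749), Pappa2 (−3.62, 0.0138) and Stc2 (−3.22, 0.0070), the last an inhibitor of PAPP-A.

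In the growth hormone arm 2 of 6 genes were lower, the receptor Ghr (−3.61, adjusted p = 0.00373) and its feedback inhibitor Socs2 (−3.32, 0.00373). Among 8 adaptors 3 were lower, among them Irs1, which couples the receptor to phosphoinositide 3-kinase (−3.40, 0.0102), and Grb14, which inhibits that signal (−3.55, 0.00748). The adaptor Irs2 (−0.44, adjusted p = 0.532), the insulin receptor Insr (0.67, 0.228) and the IGF2 clearance receptor Igf2r (−0.32, 0.368) did not pass.

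Across cell types the receptor Igf1r and the binding protein Igfbp4 were found in blood as well as skeletal cells, and the other binding proteins were highest in skeletal or vascular cells. Levels by type are a description, since this division was in view when the members were chosen. Over types with at least 20 cells in both Ctrl libraries, 5 of the 9 members had their highest Ctrl mean in an osteochondral type, namely Igf1, Igfbp3, Igfbp6 and Igfbp7 in connective tissue cells and Igfbp2 in mesenchymal stromal cells. Igfbp4 and Igfbp5 had theirs in endothelial or mural cells. So did Igf2, but on 1 UMI in Ctrl replicate 2 and 0 in Ctrl replicate 1, whereas chondrocytes had 12 and 18 Igf2 UMIs and connective tissue cells 9 and 4, so the place of Igf2 is not fixed. Igf1r had its highest mean in mature neutrophils. The rule of 20 cells left out macrophages, with 5 and 12 cells in the Ctrl libraries. In Ctrl replicate 2 they had more Igf1 than connective tissue cells, as given further on, so the place of Igf1 holds only among the types counted. Under other settings of the clustering the count of 5 was 5 or 6.

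**Figure D2:**
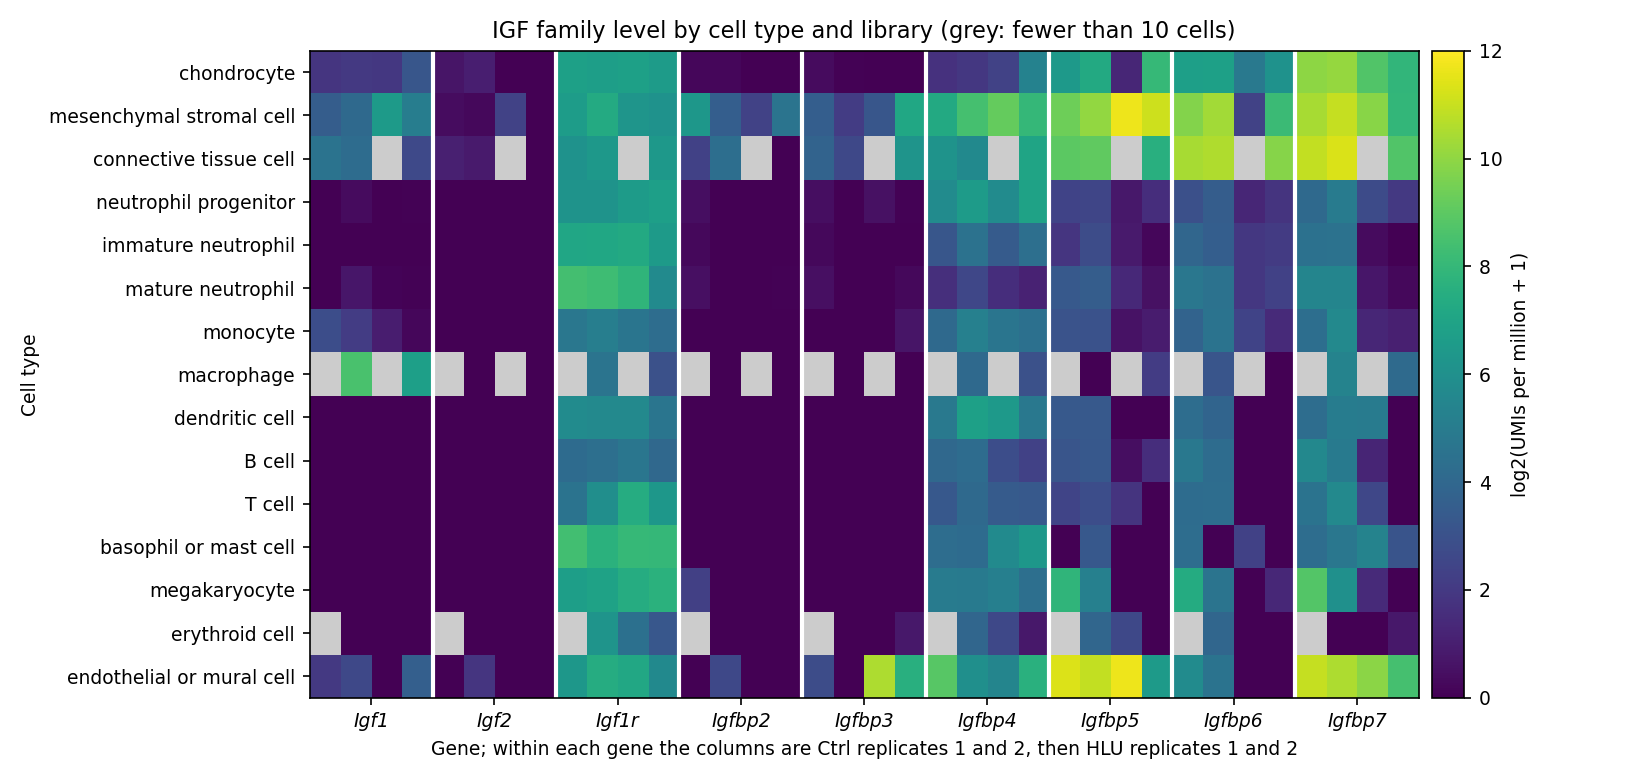
Level of each member in each cell type and library as log2(CPM + 1), shown by colour, with the 4 libraries side by side within a gene and grey where a type had fewer than 10 cells. Igf1r is raised in basophils or mast cells and in mature neutrophils, except those of HLU replicate 2 (53.3 CPM). Igfbp4 spans stromal, endothelial and neutrophil progenitor cells. Igfbp5 and Igfbp7 are highest in skeletal and vascular cells, and Igfbp6 in connective tissue and mesenchymal stromal cells.

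Of the Igfbp7 UMIs in the Ctrl libraries, 89.2% and 88.9% lay in osteochondral cells and 1.13% and 1.76% in blood cells. Connective tissue cells had 1935 and 2551 CPM of Igfbp7 in Ctrl and 431 CPM in HLU replicate 2. Mesenchymal stromal cells had 1395, 1956, 925 and 246 CPM and chondrocytes 1003, 1083, 421 and 240 CPM. In these 3 types every HLU library lay below both Ctrl libraries. Endothelial or mural cells, which share high Igfbp7 with stroma, had 1945, 1468, 976 and 349 CPM, the HLU values from 11 and 15 cells. This type pools kinds of cell whose mix differed between libraries. Without integration, a cluster with Rgs5 and Myh11 among its leading genes had 58, 45, 10 and 10 cells. One with Cldn5 and Cdh5 had 2, 9, 6 and 10. The part of this mix in the vascular levels of any member was not tested.

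Igfbp6 was more uneven between skeletal types than Igfbp7. Connective tissue cells had 1373 and 1537 CPM in Ctrl and 898 CPM in HLU replicate 2, and mesenchymal stromal cells had 864, 1312, 4.13 and 289 CPM. Chondrocytes had 109, 113, 28.2 and 69.3 CPM. Endothelial or mural cells held little of it, with 54.0, 23.1, 0 and 0 CPM.

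Igfbp5 was high in endothelial or mural cells, with 2608, 1906, 3314 and 91.5 CPM, and in mesenchymal stromal cells, with 659, 1065, 3267 and 2196 CPM. Both HLU libraries lay above both Ctrl libraries in the stromal cells and on both sides of them in the vascular cells. The stromal cells numbered 447, 366, 40 and 52. Sub-cluster 16 of the second clustering described further on, with stromal markers and high Igfbp5, had 7, 13, 24 and 20 cells. Its part in the stromal levels of Igfbp5, and in those of Igf1 and Igfbp6, was not tested. Connective tissue cells had 498 and 545 CPM in Ctrl and 187 CPM in HLU replicate 2. Chondrocytes had 89.9, 154, 1.41 and 259 CPM, a spread in which the HLU libraries enclosed the Ctrl libraries.

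Igfbp4 followed stroma as well, with 158, 348, 564 and 253 CPM in mesenchymal stromal cells and 2.25, 2.80, 4.23 and 39.2 CPM in chondrocytes. Its Ctrl levels in endothelial or mural cells were 465 and 61.5 CPM, a gap between libraries wide enough that the order of the vascular and the stromal cells is not fixed. Igfbp2, a binding protein with high affinity for IGF2, had 80.8, 11.2, 4.13 and 23.7 CPM in mesenchymal stromal cells and at most 5.12 CPM in any blood or vascular type. Of the 18 UMIs behind the 23.7 CPM of HLU replicate 2, 17 came from 1 cell.

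Igfbp3 stood apart in the HLU libraries. Endothelial or mural cells had 6.002 and 0 CPM in Ctrl and 1478 and 189 CPM in HLU, from 103 UMIs in 11 cells and 33 UMIs in 15 cells. These 103 UMIs were 74.6% of all Igfbp3 UMIs in HLU replicate 1. Mesenchymal stromal cells had 10.9, 3.39, 8.26 and 142 CPM, of which only the last stood above the rest. With so few cells the vascular type was not tested. Its mix of clusters also differed between libraries, as given above for Igfbp7.

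Igf1 was carried by connective tissue cells, with 22.4 and 17.9 CPM in Ctrl and 5.19 CPM in HLU replicate 2, and by mesenchymal stromal cells, with 10.8, 16.1, 90.9 and 33.0 CPM. Chondrocytes had 2.56, 3.02, 2.82 and 8.21 CPM. Macrophages were the blood type with the most Igf1, at 375 CPM in Ctrl replicate 2 (47 UMIs in 12 cells) and 109 CPM in HLU replicate 2 (32 UMIs in 55 cells). The other libraries had 5 and 1 macrophages and 0 Igf1 UMIs in them, so macrophages were not tested. Monocytes had 6.06, 3.36, 0.975 and 0.157 CPM. No Igf1 UMI was found in B cells, T cells, dendritic cells, basophils or mast cells, or megakaryocytes of any library.

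Igf1r was spread over both compartments. Osteochondral cells held 49.2% and 39.6% of its UMIs in Ctrl and 1.82% and 2.91% in HLU, and blood cells held 37.8%, 42.5%, 82.9% and 85.2%. Chondrocytes had 113, 105, 113 and 95.7 CPM, mesenchymal stromal cells 99.5, 162, 76.4 and 68.5 CPM and connective tissue cells 68.4 and 83.7 CPM in Ctrl and 83.0 CPM in HLU replicate 2. The order of these 3 skeletal types was not the same in the 2 Ctrl libraries. Basophils or mast cells had 333, 202, 259 and 255 CPM and megakaryocytes 104, 121, 170 and 202 CPM, whereas monocytes had 18.8 to 33.8 CPM and B cells 15.8 to 25.02 CPM. T cells ranged widely, with 22.4, 59.1, 170 and 80.7 CPM.

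Within the neutrophil lineage Igf1r and Igfbp4 ran in opposite directions. From progenitors to immature and then mature neutrophils, Igf1r rose from 70.2 to 135 and 339 CPM in Ctrl replicate 1, from 69.8 to 139 and 309 CPM in Ctrl replicate 2 and from 94.8 to 157 and 232 CPM in HLU replicate 1. In HLU replicate 2 it went from 110 to 92.0 and 53.3 CPM instead. The ratio of the mature to the progenitor level was 4.82, 4.43, 2.45 and 0.486. Under the other settings it lay between 3.67 and 5.63 in Ctrl replicate 1 and between 4.05 and 5.55 in Ctrl replicate 2. In HLU replicate 1 it lay between 2.07 and 2.65, and in these libraries it was lowest with at least 2000 UMIs per barcode. HLU replicate 2 was thus the 1 library in which the most mature cells had the least Igf1r, and under the other settings of the clustering its ratio lay between 0.432 and 0.489. Its mature neutrophils differed in other ways. Median depths of mature neutrophils were 2172, 2672, 2625 and 4143 UMIs, and 7 neutrophil transcripts made up 17.9%, 20.9%, 21.5% and 33.2% of their UMIs. Without integration 1 mature neutrophil cluster held 6, 28, 40 and 3013 cells. The part of these in the ratio was not tested.

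Igfbp4 fell along the same path in all 4 libraries. Progenitors had 53.6, 96.0, 53.5 and 118 CPM, immature neutrophils 8.13, 21.8, 10.03 and 19.8 CPM and mature neutrophils 2.12, 4.79, 1.96 and 1.23 CPM. The ranges of neighbouring stages did not overlap between libraries.

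**Figure D3:**
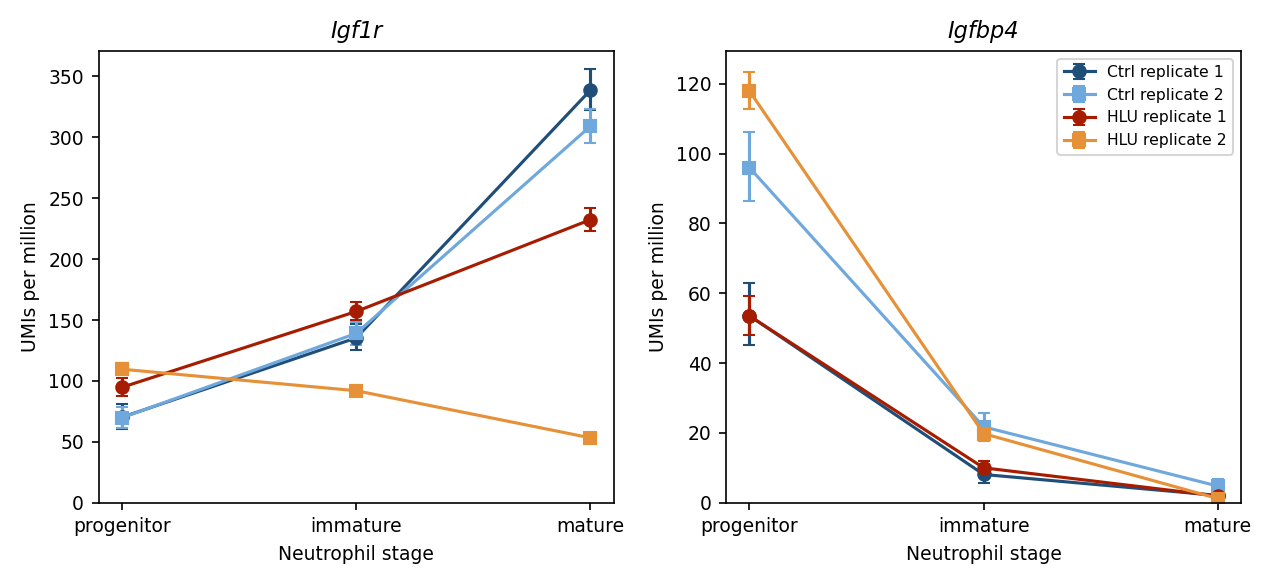
CPM of Igf1r (left) and Igfbp4 (right) in neutrophil progenitors, immature and mature neutrophils of each library, with bars for the 95% counting interval. Igf1r climbs to 339, 309 and 232 in mature cells of 3 libraries but drops to 53.3 in HLU replicate 2, and Igfbp4 drops from 53.5 or more to 4.79 or less in every library.

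RNA that is free in the droplet fluid adds UMIs to all cells, so each member's level in neutrophils (immature and mature) was set beside its level in the osteochondral cells of the same library. The 20 skeletal transcripts, which neutrophils should lack, gave a median of 2.46% and 2.52% in the Ctrl libraries, with maxima of 3.24% and 4.63%. In Ctrl, Igfbp7 gave 2.50% and 2.15%, Igfbp5 1.99% and 2.16% and Igfbp6 3.64% and 2.80%. Igfbp5 and Igfbp7 lay within the range of the skeletal transcripts in both Ctrl libraries. Igfbp6 lay above the skeletal maximum in Ctrl replicate 1 and within it in Ctrl replicate 2. Whether free RNA gave these UMIs was not tested.

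Igf1r, at 239% and 201%, and Igfbp4, at 10.9% and 18.0%, were the 2 members above that range in both Ctrl libraries, and 2 or 3 were under other settings of the clustering. In neutrophil progenitors Igfbp4 reached 114% and 131% of the osteochondral level, against a skeletal maximum of 2.31% and 2.35%. In monocytes Igf1 gave 67.2% and 41.8%, Igfbp4 34.1% and 50.3% and Igf1r 26.1% and 30.3%, against a skeletal maximum of 2.05% and 3.13%.

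In the HLU libraries, which had few osteochondral cells, the skeletal median in neutrophils was 0.0767% and 0.0440%. Igfbp5 gave 0.0908% and 0.0297% and Igfbp7 0.0740% and 0.0332% there. In HLU replicate 1 Igfbp6 gave 15.6%, against a skeletal maximum of 0.727%, and in HLU replicate 2 1.56%, against 23.6%. It was at 2.87 and 3.58 CPM in HLU neutrophils (62 and 124 UMIs), where Igfbp7 was at 0.463 and 0.0865 CPM (10 and 3 UMIs). In Ctrl neutrophils Igfbp7 was at 32.7 and 32.4 CPM and Igfbp6 at 20.4 and 16.4 CPM. In HLU B cells, T cells and dendritic cells Igfbp6 had 0 UMIs. Its means over the HLU libraries were 3.03 CPM in monocytes and 2.00 CPM in neutrophil progenitors. They were 2.02 CPM in basophils or mast cells (1 UMI) and 0.765 CPM in megakaryocytes.

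**Figure D4:**
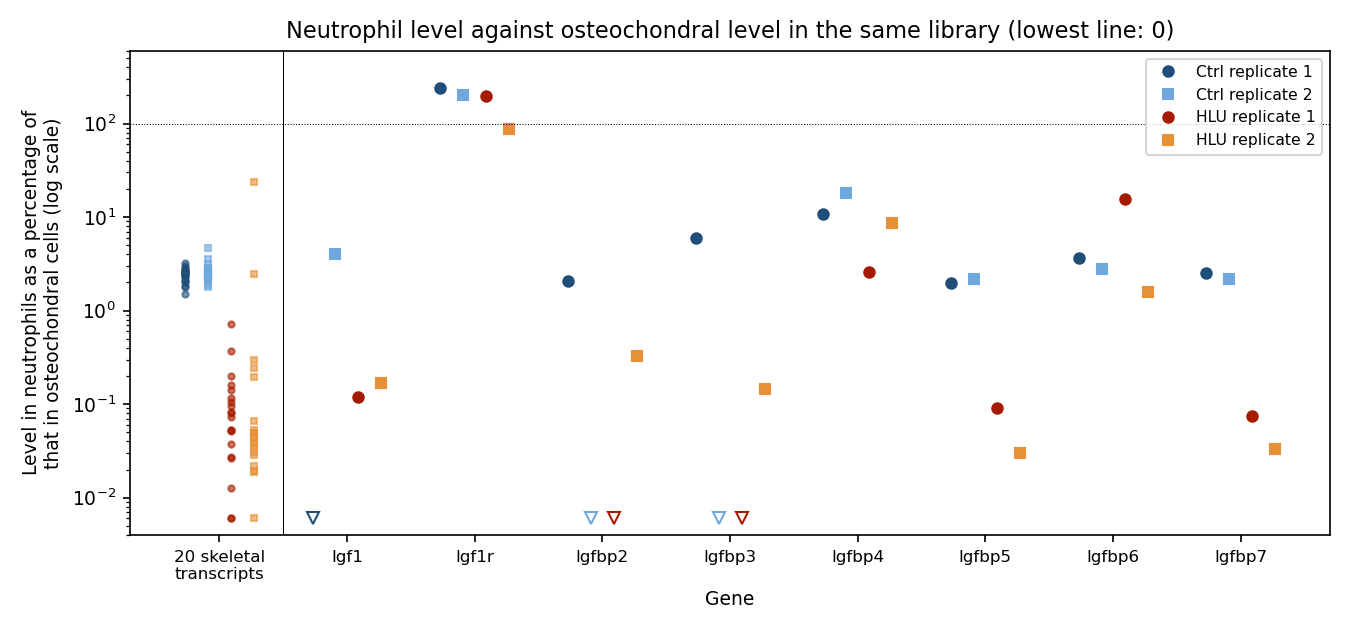
Level in neutrophils as a percentage of the level in osteochondral cells of the same library (log axis) for 20 skeletal transcripts and for each member but Igf2, with an open triangle for 0. Igf1r sits near or above 100% (239% to 87.4%), Igfbp5 and Igfbp7 sit within the spread of the skeletal transcripts of each library, and Igfbp6 of HLU replicate 1 (15.6%) rests on 22 osteochondral UMIs.

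In neutrophils 5 members could be tested (11143 genes, edgeR quasi-likelihood test), and 2 were lower in HLU, while 2.32% of all genes tested were. Igfbp7 fell by 6.96 on the log2 scale (SE 0.620, adjusted p = 0.0109) and Igfbp6 by 2.42 (SE 0.371, adjusted p = 0.0351). In the same test 17 of the 20 skeletal transcripts were lower (median −6.63), and their part in these differences was not tested. Igfbp5 had a difference of −3.30 (adjusted p = 0.0675), Igf1r of −0.79 (0.641) and Igfbp4 of 0.01 (0.993). The fall of Igfbp6 did not pass without Ctrl replicate 1 (adjusted p = 0.212) or without Ctrl replicate 2 (0.155).

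In B cells 2 of the 5 members tested were lower in HLU, beside 0.813% of 8605 genes. The Ctrl and HLU sums were not made up alike. In 1 B cell cluster the 126 and 167 Ctrl cells had 0 of the markers raised and were left unnamed. Its 76 and 48 HLU cells were named and entered the sums. The part of this in the differences was not tested. Igfbp7 had 30 and 37 UMIs in Ctrl and 4 and 0 in HLU, a ratio of 39.7 (95% counting interval 14.8 to 150), and Igfbp6 had 39 UMIs in Ctrl and 0 in HLU, at least 30.8-fold lower. The edgeR adjusted p were 0.0115 and 0.0151, and 13 of 16 skeletal transcripts tested were lower too. Igfbp4 had 15.8, 17.7, 6.17 and 3.95 CPM in B cells, groups that did not overlap, but its difference of −1.86 did not pass (adjusted p = 0.291).

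In monocytes 0 of the 6 members tested passed in edgeR, and 0.00948% of 10549 genes did, which is 1 gene. At an unadjusted p under 0.05 there were 4 members and 443 genes. DESeq2 called 106 genes and 3 members, namely Igfbp5, Igfbp6 and Igfbp7, all lower in HLU. Igf1 had a log2 difference of −3.31 in monocytes (adjusted p = 0.815 in edgeR). A fit that leaves out an HLU library holds 1 HLU library, so the spread between HLU libraries does not enter it. Without HLU replicate 1 edgeR called 5 members, beside 4236 of 10704 genes, and without HLU replicate 2 it called 3, beside 275 of 10728.

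Within the osteochondral cells the members moved in both directions, and none passed. The edgeR quasi-likelihood test called 0 of 13331 genes (0%) and so 0 of the 9 members, whereas 2881 genes and 6 members were under 0.05 before adjustment, and DESeq2 called 976 genes and 2 members, Igfbp5 and Igfbp7. Igfbp5 had 294, 388, 1326 and 970 CPM, and both HLU libraries lay above both Ctrl libraries (log2 difference 1.39, SE 0.301, adjusted p = 0.100 in edgeR and 0.000802 in DESeq2). Igfbp7 had 1307, 1503, 625 and 260 CPM, with both HLU libraries below (−2.05, SE 0.454, adjusted p = 0.103 in edgeR and 0.000888 in DESeq2).

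Igf1 had 9.02, 8.04, 38.5 and 17.1 CPM (difference 1.29, adjusted p = 0.158 in edgeR) and Igfbp4 46.9, 73.5, 231 and 127 CPM (1.19, 0.164). For both the groups did not overlap, with HLU above. Igfbp6 had 561, 584, 18.4 and 229 CPM (−2.51, 0.253) and Igf1r 99.4, 112, 98.0 and 84.5 CPM (−0.57, 0.207), with HLU below. Igfbp3 had 5.34, 1.54, 3.35 and 59.6 CPM (2.94, 0.225) and Igfbp2 15.4, 5.53, 1.67 and 8.79 CPM (−1.18, 0.438), and in both the groups overlapped. Without sub-cluster 11 of the second clustering described further on, which holds the 1 cell with 17 of the 18 Igfbp2 UMIs of HLU replicate 2, Igfbp2 was at 15.6, 5.73, 2.06 and 0.756 CPM, groups that did not overlap. Igf2 rested on 23, 23, 2 and 0 UMIs.

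Without HLU replicate 1 edgeR called 4 members in osteochondral cells, beside 2360 of 14491 genes, and without HLU replicate 2 it called 5, beside 794 of 14403. Each of these fits held 1 HLU library, so the spread between HLU libraries did not enter it. The HLU sums of the main test came from 94 and 181 cells. In these cells skeletal transcripts made up 3.16% and 2.93% of UMIs, against 8.28% and 8.79% in Ctrl. The 7 neutrophil transcripts made up 2.19% and 2.16%, against 0.455% and 0.827%. The part of these in the members' values was not tested. Of the other pathway genes 0 of 43 tested passed. Pappa came nearest, with 37.8, 30.6, 111 and 128 CPM (log2 difference 1.46, adjusted p = 0.0723), together with Htra1, with 678, 583, 157 and 236 CPM (−2.03, 0.0723).

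A second clustering of the 6287 osteochondral cells alone gave 18 sub-clusters, numbered 0 to 17, in which the members took different places. Sub-cluster 16, led by Lpl and Adipoq and with 10 of 12 mesenchymal stromal markers raised, had 3830, 4714, 6730 and 4462 CPM of Igfbp5. Its Igfbp6 was near nil, with 0, 3, 0 and 0 UMIs. It also had 240, 597, 785 and 313 CPM of Igfbp4 and 37.9, 56.0, 196 and 48.8 CPM of Igf1. The groups overlapped for all 3 of these genes, and Ctrl replicate 1 had only 7 such cells, so no test was made.

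This sub-cluster had 7, 13, 24 and 20 cells, so it was a larger part of the HLU than of the Ctrl osteochondral cells. It held 303 of 9836 and 758 of 10808 osteochondral Igfbp5 UMIs in the Ctrl libraries, but 1475 of 1583 and 1097 of 1986 in the HLU libraries. Without it, osteochondral Igfbp5 was at 285, 363, 111 and 493 CPM, groups that overlapped (log2 difference −0.38, edgeR adjusted p = 0.806), and Igf1 was at 8.95, 7.76, 3.08 and 12.8 CPM (−0.22, 0.862). Igfbp4 was then at 46.4, 70.5, 107 and 102 CPM (0.53, 0.362) and Igfbp7 at 1307, 1506, 389 and 247 CPM (−2.45, 0.0891). Outside this sub-cluster Igfbp5 and Igf1 were thus above both Ctrl libraries in HLU replicate 2 alone, while Igfbp7 was still below them in both HLU libraries.

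Osteoblast markers were raised in several sub-clusters. Sub-cluster 8 had 7 of them beside 10 chondrocyte markers (161, 231, 13 and 1 cells). The 8 in sub-cluster 15 stood beside 7 connective tissue and 4 mesenchymal stromal markers, and no chondrocyte marker was raised there. Sub-cluster 15 was led by Bglap2 and Ifitm5 and then by the haemoglobin gene Hbb-bs, with 91, 54, 0 and 1 cells. Its Ctrl cells had UMIs of every member. Igfbp2 was at 68.6 and 305 CPM, Igfbp4 at 497 and 462 CPM, Igfbp3 at 120 and 22.9 CPM and Igf1 at 85.7 and 49.1 CPM. Igf2 had 6.43 and 6.55 CPM from 3 and 2 UMIs. Igf1r was at 51.4 and 3.28 CPM there, the last from 1 UMI, its lowest Ctrl mean among the 17 sub-clusters ranked. With 1 HLU cell no comparison of conditions was possible.

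The highest Ctrl means of Igfbp6 and Igfbp7 lay in 2 sub-clusters with connective tissue markers. Sub-cluster 2, led by Npy and also marked by Angptl7 and Abi3bp (335, 258, 0 and 5 cells), had 1831 and 2521 CPM of Igfbp6 and 3139 and 3716 CPM of Igfbp7 in Ctrl, but 1.39 and 0.868 CPM of Igf1. Its 5 cells in HLU replicate 2 had 2522 CPM of Igfbp6. Sub-cluster 0, with Myoc, Aspn and Clec3b among its leading genes (536, 92, 0 and 14 cells), had 50.7 and 131 CPM of Igf1 beside 1493 and 1623 CPM of Igfbp6 and 2049 and 3494 CPM of Igfbp7. The 2 sub-clusters were thus alike in these binding proteins and unlike in the ligand in both Ctrl libraries, which is a description.

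Sub-cluster 4, with Ptx3 and Postn among its leading genes (234, 235, 14 and 12 cells), held most of the Igfbp2 of Ctrl replicate 1, at 148 CPM (480 of 517 osteochondral UMIs), and 18.7 CPM in Ctrl replicate 2. Its Igfbp4 was at 84.7, 463, 300 and 47.1 CPM and its Igfbp5 at 237, 823, 333 and 94.3 CPM, and for both the Ctrl libraries lay far apart. Dividing cells (sub-cluster 17, led by Pbk and Cdk1, with 23, 28, 0 and 0 cells) had 0 Igf1 UMIs. They had 11 chondrocyte markers raised, and chondrocytes as a whole had a Ctrl mean of only 2.79 CPM. In so few cells the 0 is not read as a difference.

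**Figure D5:**
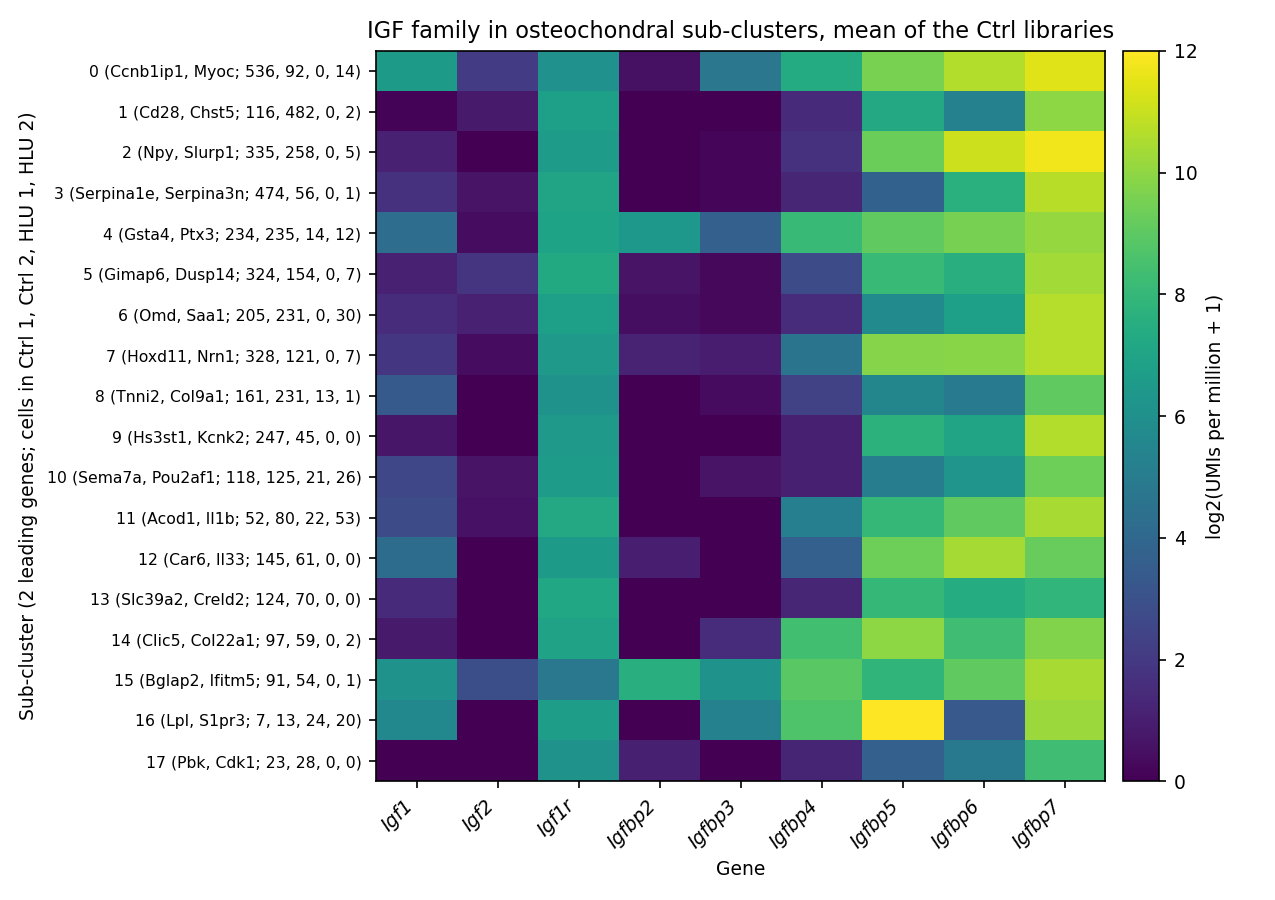
Mean level of each member over the Ctrl libraries in the 18 osteochondral sub-clusters, as log2(CPM + 1) by colour, with 2 leading genes and the cells per library beside each. Igfbp7 and Igf1r are present in all rows, whereas Igfbp5 peaks in sub-cluster 16 where Igfbp6 is near nil, and Igf1, Igfbp2, Igfbp3 and Igfbp4 are raised together in sub-cluster 15.

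Sub-clusters 4, 10 and 11 had at least 10 cells in each library and were tested on their own. The edgeR test called 0 of 9062, 7972 and 6140 genes, so 0 members, and at an unadjusted p under 0.05 there were 737, 500 and 1003. Only edgeR was run on them. Igfbp7 had log2 differences of −2.50, −1.03 and −2.37 in the 3 sub-clusters (adjusted p = 0.589, 0.790 and 0.147), all lower in HLU. Igfbp5 had −1.44 in sub-cluster 4 and 0.60 in sub-cluster 11, and in sub-cluster 10 it had 43, 77, 0 and 0 UMIs, at least 7.83-fold lower in HLU. Sub-cluster 11 (52, 80, 22 and 53 cells) was led by Acod1 and Il1b. It had no osteochondral marker raised, but many blood markers, such as Elane, Ltf, Camp and S100a8. It was thus a larger part of the HLU than of the Ctrl osteochondral cells. Without its 207 cells 0 members passed, and Igfbp5 and Igfbp7 were at 1.57 (adjusted p = 0.140) and −1.92 (0.145).

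The HLU effect was then compared between osteochondral and blood cells of the same libraries (interaction term in edgeR, 15129 genes). Here 2 of the 9 members had a higher log2 effect in osteochondral than in blood cells, Igfbp5 by 4.58 (SE 0.354, adjusted p = 0.00147) and Igfbp7 by 2.35 (SE 0.279, adjusted p = 0.00686). Over all genes 3.63% were called in that direction, and the median difference over all genes was −0.10, or 0.09 with RLE in place of TMM scaling factors. In blood cells Igfbp5 had 9.55, 7.96, 0.971 and 0.831 CPM and Igfbp7 34.98, 35.9, 2.09 and 1.06 CPM, both lower in HLU. In osteochondral cells Igfbp5 was higher and Igfbp7 lower, as given above. Of the 20 skeletal transcripts 18 were called in the same direction, and their summed share of blood cell UMIs was 0.185%, 0.204%, 0.00326% and 0.00242%. Whether these transcripts' course has a part in the difference was not tested.

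The call for Igfbp5 was lost without sub-cluster 16 (2.55, adjusted p = 0.0957) and at a clustering resolution of 0.5 (1.78, 0.715), and that for Igfbp7 held in both (2.02, 0.0112, and 2.05, 0.00938). At that resolution 114 and 21 cells of HLU replicate 1 in connective tissue clusters were left unnamed. Its osteochondral sum then held 54 cells, all from chondrocyte clusters. The 2 settings are thus not separate checks on stromal cells of that library. Igfbp6 had a difference of −0.43 (adjusted p = 0.862) that was 1.14 (0.0121) without HLU replicate 1 and −2.53 without HLU replicate 2, so its direction rested on 1 library. Among the pathway genes 3 of 44 were called, Pappa (3.89, adjusted p = 0.0168), Ghr (3.84, 0.0226) and Htra1 (1.5, 0.0386).

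Over 49 sums of 1 library and 1 cell type, the genes most like each member were found by Pearson's correlation of log2 levels. The sums share libraries and depth, and no test was made. Igfbp7 was most like Bgn, Nbl1 and Sod3 (r = 0.941, 0.931 and 0.929), Igfbp6 like Tnxb, Fmod and Abi3bp (0.930, 0.927 and 0.924) and Igfbp5 like Prrx1, Antxr1 and Col5a3 (0.951, 0.928 and 0.920). Bgn, Tnxb and Fmod are matrix genes of connective tissue, and Prrx1 is a limb mesenchyme transcription factor. Igfbp2 was most like Lrrn4cl, Osr1 and Mfap5 (0.919, 0.877 and 0.875) and Igfbp3 like Fmo1, Nnmt and Podn (0.895, 0.894 and 0.890).

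The genes nearest to Igf1 were Slc1a3, Slc6a8 and Fignl2 (0.852, 0.851 and 0.843) and those nearest to Igf2, on very few UMIs, Npr3, Olfm2 and Slc2a10 (0.808, 0.779 and 0.778). The genes present in both compartments had looser neighbours. Igf1r was most like Mcu, Pdlim7 and Cd9 (0.738, 0.732 and 0.701) and Igfbp4 like Hfe, Gstm2 and Xpnpep1 (0.696, 0.684 and 0.677). Among the members themselves, over 34 Ctrl sums of osteochondral sub-clusters, the closest pairs were Igf1 with Igfbp3 (r = 0.773) and Igfbp5 with Igfbp6 (0.767), and the lowest was Igf1r with Igfbp2 (−0.569).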

How the data were processed

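Single-cell libraries of bone from 2 Ctrl and 2 HLU mice were used. The authors deposited raw UMI counts per gene and barcode, without normalization, made with Cell Ranger 6.0.0 on mm10. Total counts were 47819046 to 99849070 UMIs per library in 10000 to 10003 barcodes. This count sets the precision, and intervals and floors (3 UMIs) cover counting error only. The 9 members, the pathway and marker lists and the rule for naming genes were chosen with earlier results of these data known. That rule names every member, the pathway genes called over all barcodes or in osteochondral cells (up to 5 in each direction by fold), 8 further pathway genes, and for each member its 3 most alike genes.

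Doublets were taken as the barcodes with the highest Scrublet scores (scanpy 1.11.5), at 0.8% per 1000 barcodes, so 431 to 720 per library, and removed from cell types, not from the sums over all barcodes. Libraries were integrated in Seurat 5.3.0 under R 4.3.3 through anchors on 2000 genes, members and pathway genes excluded, with 50 components and a resolution of 1. Clusters were named from marker lists, under thresholds set after the clusters were seen. In all, 1860 cells stayed unnamed, some of them in clusters that were named in other libraries. Sums of UMIs over the cells of a type in each library were tested with edgeR 4.0.16 (TMM factors, filterByExpr, quasi-likelihood test, two-sided, Benjamini-Hochberg over all genes tested, adjusted p under 0.05), after a check on simulated data. DESeq2 1.42.0 was an alternative. The labels name 2 replicates per group, and the study's methods give 2 mice per group. The p-values measure the spread between these libraries. A fit with 1 library left out holds 1 library in a group, so the spread within that group does not enter its p-values. Same-numbered Ctrl and HLU libraries did not deviate together (correlations of −0.0522 to 0.0348), so the numbers do not pair them.

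Other settings were RLE factors, no filter on low counts, each library left out, the replicate number as a block, doublets kept, resolutions of 0.5 and 2, no integration, at least 2000 UMIs and at most 0.2% haemoglobin UMIs. Tests within or without osteochondral sub-clusters, and the other clustering settings for the cell counts and the comparison with free RNA, were added after seeing the data. A planned test in macrophages was not run, since 2 libraries had fewer than 10. Gene positions come from GENCODE M21 and promoters from RefSeq. Python 3.11.15 was used for the other steps.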

Additional observations from a re-analysis of the deposited data

Results flagged for a closer look

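A test of the difference itself flagged 5 genes whose HLU against Ctrl difference was not the same in the osteochondral and the blood cell sums (edgeR interaction term, log2 effect in osteochondral minus that in blood cells). Igfbp5 differed by 4.58 and Igfbp7 by 2.35. The call for Igfbp5 was lost without sub-cluster 16 (adjusted p = 0.0957) and at a resolution of 0.5 (0.715). At 0.5 the osteochondral sum of HLU replicate 1 held only 54 cells, from chondrocyte clusters. Both genes lay within the range of the skeletal transcripts in neutrophils, and 18 of 20 skeletal transcripts were called in the same direction. Their part in the term was not tested, nor whether the term holds a response of the blood cells themselves. Among the pathway genes Pappa, a protease of binding proteins, differed by 3.89, the growth hormone receptor Ghr by 3.84 and the protease Htra1 by 1.5. In blood cells Pappa had 14, 10, 7 and 5 UMIs and Ghr 9, 31, 5 and 3 UMIs, so their blood levels rest on few molecules, while Htra1 had 285, 378, 57 and 102 UMIs there. In osteochondral cells Pappa was higher in both HLU libraries and Htra1 lower in both, and Ghr had 28.9, 29.2, 39.4 and 47.4 CPM.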

How the results depend on the processing

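Over all barcodes 6 members passed, and 3 to 7 did with 1 library left out. In osteochondral cells 0 passed, but 2 in DESeq2, 6 with no filter on low counts and 0 to 5 with 1 library left out. In neutrophils 2 passed, 1 with no integration and 1 to 4 with 1 library left out. In monocytes 0 passed, 3 in DESeq2, 4 with no filter, 1 with doublets kept and 0 to 5 with 1 library left out. In B cells 2 passed and 1 at a resolution of 0.5. The interaction had 2, 1 at a resolution of 0.5, 1 without the sub-cluster led by Lpl and Adipoq and 2 to 5 with 1 library left out. With the replicate block, which does not pair these mice, 1 member passed in monocytes and 3 in neutrophils, with the counts of 6, 0 and 2 elsewhere. The cause was not tested for any of these. Of all genes, DESeq2 called 976 of 13331 in osteochondral cells and 106 of 10549 in monocytes. With no filter these were 2028 of 20148 and 437 of 16827. With no integration 200 of 10520 passed in neutrophils, and with doublets kept 19 of 10435 in monocytes. The block called 345 of 11143 in neutrophils and 27 of 10549 in monocytes. Counts for most other settings are given below.

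Directions turned as follows. In osteochondral cells Igf1 was −0.22 and Igfbp5 −0.38 without the sub-cluster led by Lpl and Adipoq. Within sub-cluster 4 Igf1 was −3.12, Igfbp4 −0.78 and Igfbp5 −1.44, and Igfbp5 was −8.21 in sub-cluster 10. At a resolution of 0.5 Igfbp4 was −0.18 in osteochondral cells, −0.28 in neutrophils and −1.05 in the interaction. The osteochondral sum of HLU replicate 1 then held only 54 cells, from chondrocyte clusters. In neutrophils Igfbp4 was −0.61 with doublets kept, −0.73 at a resolution of 2 and −0.04 at 2000 UMIs, and in monocytes 0.06 with doublets kept. Igf1r in B cells was 0.04 with no integration.

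With 1 library left out, Igf1r ranged from −0.68 to 0.15 over all barcodes, from −0.41 to 0.18 in B cells and from −0.32 to 0.56 in the interaction. Igf2 ranged from −7.02 to 0.72 in osteochondral cells and from −7.41 to 0.62 in the interaction, where Igfbp2 ranged from −1.90 to 2.90 and Igfbp6 from −2.53 to 1.14. Igfbp3 ranged from −0.48 to 1.70 over all barcodes, from −0.47 to 4.05 in osteochondral cells and from −1.46 to 2.92 in the interaction, and Igfbp4 from −0.68 to 0.91 in neutrophils and from −0.69 to 0.41 in monocytes.

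Genes called in osteochondral cells numbered 0, against 976 in DESeq2, 2028 with no filter, 137 with doublets kept and 0 to 2360 with 1 library left out. In neutrophils 263 were called, against 408 in DESeq2, 1000 with no filter, 441 with doublets kept and 85 to 3949 with 1 library left out. In monocytes 1 was called, against 106 in DESeq2, 437 with no filter, 27 with the block, 19 with doublets kept, 5 at a resolution of 2, 3 with no integration and 0 to 4236 with 1 library left out. In B cells 72 were called, against 36 with no filter, 34 and 1134 at resolutions of 0.5 and 2, 123 with doublets kept and 66 to 1549 with 1 library left out. Over all barcodes 3568 were called, and 848 to 7726 with 1 library left out. The interaction called 631, against 1247 with no filter and 547 to 2104 with 1 library left out. The HLU levels in osteochondral cells rest on 94 and 181 cells.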
